A study of Mus musculus with 10 samples.

Results

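The replication-dependent histone cluster genes of the mouse were followed here through the conversion of stem cells into primordial germ cell-like cells (PGCLCs). Members were taken by symbol, as every gene named Hist1 to Hist4 followed by h1, h2a, h2b, h3 or h4, with names ending in -ps left out. This gave 69 of the 36066 genes in the expression table, namely 6 linker histone H1 genes, 20 H2A, 18 H2B, 12 H3 and 13 H4 genes. All 69 had at least 0.1 TPM (transcript abundance per length, scaled to the same total in every library) in at least 2 libraries and were tested, among 27259 genes. On chromosome 13 lay 56 of them, on chromosome 3 lay 10, on chromosome 11 lay 2 and on chromosome 6 lay 1. The annotation lists 2 members, Hist1h2aj and Hist1h2al, as pseudogenes.

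RNA was sequenced from 5 groups of cells of the C57BL6 strain with 2 libraries each. ESC were a female embryonic stem cell line from fertilized embryos and pESC a parthenogenetic line from activated oocytes, whose genome is maternal only. Both lines carried a β-Actin-GFP transgene and grew on mouse embryonic fibroblast feeders with serum and LIF. ESC-PGCLC and pESC-PGCLC were made from these lines through 2 days as epiblast-like cells and 4 days with 500 ng/ml BMP4, SCF, EGF and LIF, and were sorted for CD61 and SSEA1. PGC were isolated from female embryos, by the study's methods either with CD61 and SSEA1 or with magnetic beads against SSEA1. Their embryonic day is not on the labels. Each derived group therefore came from 1 line, and nothing on the labels says whether replicates were separate cultures or animals, so p-values measure only the spread between these libraries.

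Replication-dependent histone genes supply the core histones H2A, H2B, H3 and H4 and the linker H1 that package newly copied DNA, and their mRNAs are abundant mainly in S phase. Most are short, lack introns and end in a conserved stem-loop instead of a poly(A) tail; the stem-loop is bound by SLBP and cut from the precursor by a complex that includes the U7 snRNP. In the germ line, several are joined or replaced by testis-type members, of which Hist1h1t (H1t), Hist1h2aa (TH2A) and Hist1h2ba (TH2B) are the best known. The sample descriptions name a kit for total RNA and the study's methods a protocol primed on poly(A), so each value is the level of the captured part of the transcripts.

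The stem-loop is shown first because it is the element that most members share and that takes the place of a poly(A) tail. A 16-base stem-loop (GG, 3 pyrimidines, TT, 4 bases, 3 purines and CC, with paired arms) was found in the transcript sequence of 46 of the 69 members, 4 of H1, 11 of H2A, 10 of H2B, 9 of H3 and 12 of H4. The commonest form, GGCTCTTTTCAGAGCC, was in 26 members and in no H4 gene, and the form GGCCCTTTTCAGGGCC was in 7 members, all H4. Below, the stem-loop is in capitals, on the coding strand, GRCm38 coordinates, from the GENCODE transcripts. Hist1h2ag and Hist1h2ap are 2 of the most abundant members, Hist1h4d is the most abundant H4 gene, Hist1h1t is a germline gene, and Hist3h2ba is an H2B gene outside the main cluster.
Hist1h2ag (chr13:22042478-22042507, minus strand): gccaacaaaGGCTCTTTTCAGAGCCaccta
Hist1h2ap (chr13:21833026-21833053, minus strand): aaaaaaaaaGGCTCTTTTCAGAGCCatc
Hist1h4d (chr13:23581941-23581970, plus strand): aaaaccaaaGGCCCTTTTCAGGGCCactac
Hist1h1t (chr13:23696516-23696545, plus strand): aaacccaaaGGCTCTTTTAAGAGCCactta
Hist3h2ba (chr11:58949340-58949369, plus strand): caacccaaaGGCTCTTTTCAGAGCCacctt
Hist1h2ap and its near copy Hist1h2ao were the 2 members in which all 9 bases directly before the stem-loop are A, and both were among the 4 most abundant members.

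Many members stand head to head as H2A and H2B pairs that share the DNA between them, and 13 such pairs had starts less than 400 bases apart. For 61 members RefSeq (GRCm38.p6) gives a start site, and the 250 bases before it were searched for 5 motifs on both strands. CCAAT, the CCAAT box, was in 82.0% of these members against 33.8% of 32851 promoter windows of all genes. It was in 17 of 17 H2A, 16 of 16 H2B and 6 of 6 H1 windows but in 3 of 12 H4 windows. TATAA, the core of the TATA box, was in 63.9% against 22.8%. ATGCAAAT, the octamer bound by OCT factors, was in 21.3% against 1.6%, and the 13 members with it were 7 H2A and 6 H2B genes. TGACGTCA, the cAMP response element, was in 6.56% against 1.55%, and CACGTG, an E box, was in 0 of 61 against 6.02%. The gap within a pair was 175 to 305 bases, so the windows of its 2 genes overlap and 1 site can count for both. A match is a description of the letters and not evidence of a bound site.

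Printed here are the windows of Hist1h2aa, which had no read in any stem cell library, and of Hist1h2ag, an abundant member in every group, with the matches to these motifs in capitals (ATTGG is CCAAT and TTATA is TATAA read on the other strand).
Hist1h2aa (chr13:23934187-23934436, plus strand): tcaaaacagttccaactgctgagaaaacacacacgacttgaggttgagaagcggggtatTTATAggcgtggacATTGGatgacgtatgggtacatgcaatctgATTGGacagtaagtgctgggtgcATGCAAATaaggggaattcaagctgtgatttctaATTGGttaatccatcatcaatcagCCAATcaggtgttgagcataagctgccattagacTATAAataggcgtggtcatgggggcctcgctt
Hist1h2ag (chr13:22042950-22043199, minus strand): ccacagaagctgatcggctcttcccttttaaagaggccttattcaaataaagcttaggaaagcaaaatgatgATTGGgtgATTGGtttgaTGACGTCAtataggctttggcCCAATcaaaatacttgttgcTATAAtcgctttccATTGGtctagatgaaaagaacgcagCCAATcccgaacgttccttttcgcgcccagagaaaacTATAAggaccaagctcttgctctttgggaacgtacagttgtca
Both windows hold 4 or more CCAAT boxes and 2 TATA cores. The octamer is in the Hist1h2aa window and the cAMP response element in the Hist1h2ag window.

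The deposited TPM steps gave whole reads for 94.7% to 94.9% of the values in a library, within 0.02 reads, and so the depth could be read back. It ran from 6779848 reads in ESC-PGCLC 2 and 7697697 in ESC-PGCLC 1 to 18572926 in ESC 2, and the members held 79382 reads in all. For a gene of 500 bases, 3 reads correspond to 0.505 to 1.47 TPM. Intervals and limits given below cover counting error only. The cell labels were checked against their markers. The summed TPM of 8 pluripotency genes was 23300 to 29500 in the stem cells and 2430 to 5780 in the germ cell groups. Dppa5a made up most of these sums, at 21700 to 28200 and 2210 to 5630 TPM. Sox2 was higher in ESC-PGCLC (97.3 and 110 TPM) than in ESC (32.7 and 44.6), and the other 7 genes were lower there. Of these, Pou5f1 was at 0.374 and 0 TPM in ESC-PGCLC. The sum of 10 PGC genes was 408 to 932 TPM in the stem cells and 5660 to 8000 in the germ cell groups.

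H2A genes carried nearly all of the measured histone RNA. Over the 10 libraries the H2A class held 81.2% to 94.5% of the summed TPM of the 69 members, and 4 genes alone (Hist1h2ap, Hist1h2ah, Hist1h2ag and Hist1h2ao) held 63.5% to 76.2%. TPM divides reads by the annotated length, and these lengths are unequal. Hist1h1d is annotated with 7425 bases, 4884 of them after the stem-loop, and Hist1h2ap with 482. Class levels in TPM carry this limit, but 70614 of the 79382 member reads were also on H2A genes. The median of a member's mean TPM was 23.2 for H2A, 1.63 for H2B, 1.6 for H4, 1.2 for H3 and 1.09 for H1, with Hist1h2ap highest at 387. At least 10 TPM on average was reached by 15 members, 11 of them H2A, and 21 members stayed under 1 TPM. The nucleosome holds the 4 core histones in equal numbers, and the captured RNAs were far from equal.

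**Figure D1:**
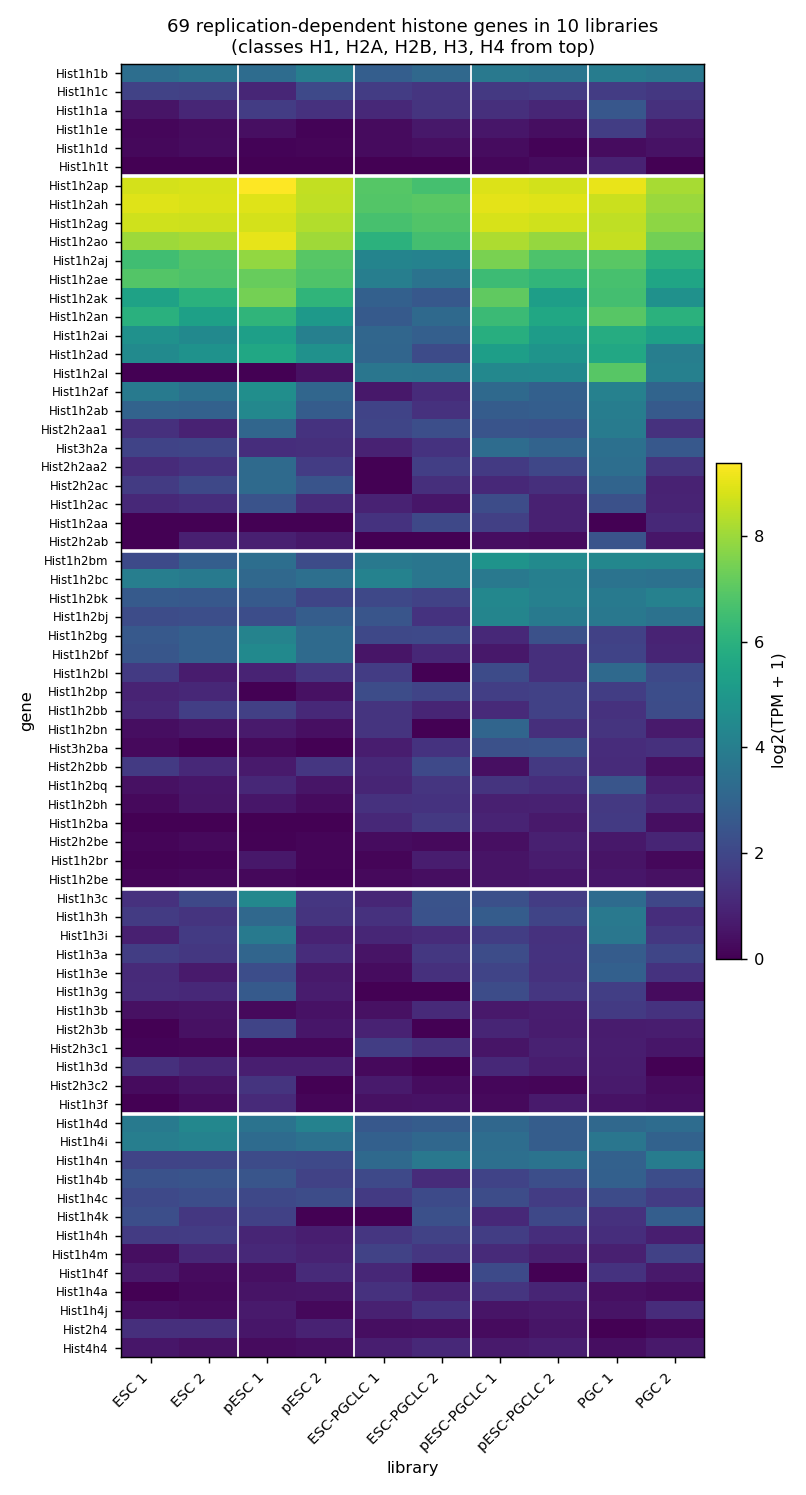
Level of each of the 69 members, log2(TPM + 1) on a colour scale from dark (0) to yellow (highest), in each of the 10 libraries, with members in blocks by class (H1, H2A, H2B, H3 and H4 from the top) and libraries by group. The brightest cells are in the H2A block, led by Hist1h2ap at a mean of 387 TPM, and most of that block is darker in both ESC-PGCLC libraries.

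Much of this signal sits in sequences that members share. Of the 100-base stretches of Hist1h2ao, 92.7% also occur in another gene's transcripts, as do 92.2% of Hist1h2ap, 87.9% of Hist1h2ah and 76.2% of Hist1h2ag, and the class median was 64.5% for H2A against 0.396% for H1. How the counting divided such reads is not given in the sources used here, so single H2A genes with high sharing are uncertain, and what the division did to the class sum was not tested. A short gene model typed as miRNA lies on the opposite strand inside 19 H2A genes, and all 19 of these models had reads, up to 1230 TPM. Gm44390, the model inside Hist1h2ah, was at 1040 TPM in ESC 1, 253 TPM in ESC-PGCLC 1 and 1230 TPM in pESC-PGCLC 1, the same order as its host. Whether counting used strand is not stated, and reads of a host and such a model cannot be told apart without it.

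Summed over all 69 members, histone RNA was lowest in ESC-PGCLC. ESC 1 and ESC 2 had sums of 2102 and 2116 TPM, against 3075 and 1822 in pESC, 589 and 628 in ESC-PGCLC, 2564 and 2107 in pESC-PGCLC, and 2627 and 1359 in PGC. Both ESC-PGCLC libraries lay under every other library, and the other 4 groups overlapped one another. The group means were 609 ± 27.7 TPM (SD, n = 2) in ESC-PGCLC, 1993 ± 897 in PGC, 2109 ± 10.2 in ESC, 2336 ± 323 in pESC-PGCLC and 2449 ± 886 in pESC, with neighbours in this order above ESC-PGCLC differing by less than their spread. As 2 libraries against 2 cannot reach an exact permutation p below 0.333, no test is given for a sum. In these bulk libraries, fewer cells making a transcript and less of it per cell cannot be told apart.

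The classes moved differently. The H2A sum was 1986 ± 0.557 TPM in ESC and 496 ± 20.7 in ESC-PGCLC, 4.01-fold lower, while it was 2298 ± 836 in pESC and 2163 ± 301 in pESC-PGCLC. The H2B sum was 44.1 and 47.2 TPM in ESC, 71.8 and 45.5 in pESC, 55.8 and 46.8 in ESC-PGCLC, 103 and 90.7 in pESC-PGCLC, and 87.6 and 74.2 in PGC, so both pESC-PGCLC and both PGC libraries lay above the other 6. The H4 sum stayed between 33.7 and 54.5 TPM in all 10 libraries. The H3 sum lay between 8.66 and 25.2 TPM except in pESC 1 and PGC 1, where it was 64 and 53.2, and the H1 sum lay between 9.65 and 24.8.

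**Figure D2:**
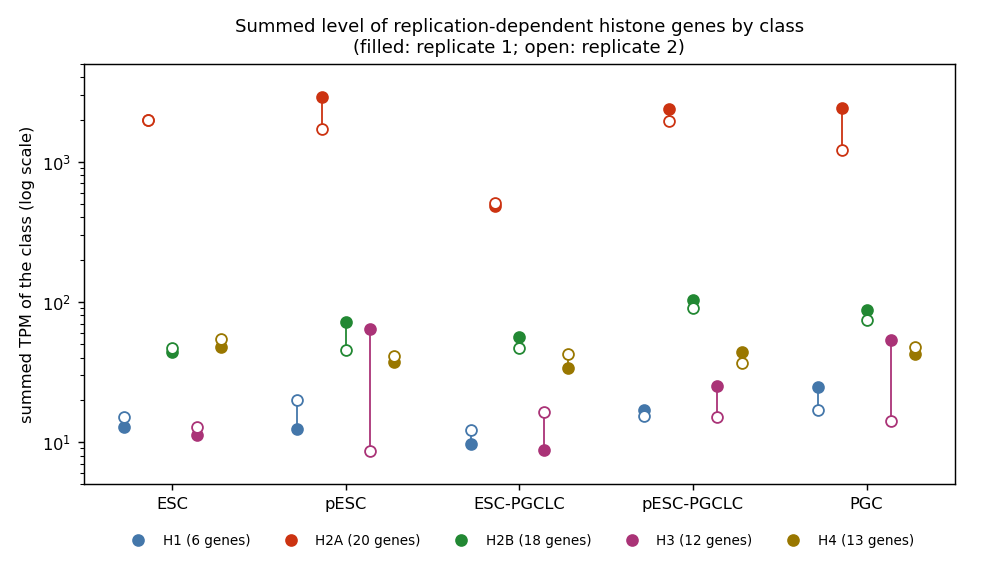
Summed TPM of the members of each histone class (colours, log axis) in each group, with replicate 1 as a filled point, replicate 2 as an open point and a line between them. The H2A points of ESC-PGCLC, at 481 and 510 TPM, lie under those of all other groups, while the H4 points stay between 33.7 and 54.5 TPM.

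H2A genes were lower after differentiation of the fertilized line. Members were compared on the log2(TPM + 1) scale with limma over all 10 libraries, and a gene was called where its Benjamini-Hochberg adjusted p was under 0.05 and it moved 2-fold or more on that scale, which understates the change of low genes. In ESC-PGCLC against ESC, 23 of 69 members (33.3%) were called, against 29.8% of all genes tested. Of these, 15 were lower (21.7%, against 14.5% of all genes) and 8 higher (11.6%, against 15.3%). By class, 11 H2A genes were lower and 2 higher, whereas H2B had 1 lower and 3 higher, H4 had 2 and 2, H3 had 1 and 1, and H1 had 0. The median change was -1.69 for H2A and -0.15 for all members, beside 0.05 for all genes. The count fell to 13 without ESC 1. The 2 ESC-PGCLC libraries were also the shallowest of the 10, and the part of depth in this result was not tested.

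Hist1h2ap, the most abundant member, was at 436 and 448 TPM in ESC and at 120 and 97.4 TPM in ESC-PGCLC. Its change was -2.02 (SE 0.35, adjusted p = 0.00199). Hist1h2ah was at 489 and 462 TPM in ESC and 116 and 127 TPM in ESC-PGCLC, a change of -1.96 (SE 0.23, adjusted p = 0.000274). Both genes encode canonical H2A and in both the groups were far apart. Hist1h2ae fell from 115 and 108 TPM to 15.2 and 10.8 TPM, with a change of -3.02 (SE 0.36, adjusted p = 0.000259), and 30.7% of its stretches are shared, less than in the 4 most abundant genes. Hist1h2ak fell from 41.7 and 62.3 TPM to 6.42 and 5 TPM, a change of -2.96 (SE 0.75, adjusted p = 0.0129), with 10.5% of its stretches shared. Hist1h2an (-2.72, adjusted p = 0.0021), Hist1h2af (-2.77, adjusted p = 0.00334) and Hist1h2aj (-2.48, adjusted p = 0.00159) fell as well. Across these genes the libraries of the compared groups did not overlap. For all except Hist1h2ap and Hist1h2ah, that was a condition for being named here.

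In the parthenogenetic line the result for H2A depended on the scaling. In pESC-PGCLC against pESC, 11 members (15.9%) were called, against 27.6% of all genes. Of these, 9 were higher (13%, against 20.8%) and 2 lower (2.9%, against 6.8%). No H2A gene was lower and 3 were higher, and the H2A median was -0.20. With each library centred on its median, 2 H2A genes were higher and 4 lower with a median of -0.93, and with quantile normalization 3 were higher and 1 lower with a median of -0.46. Hist1h2ah was at 485 and 361 TPM in pESC and 517 and 484 TPM in pESC-PGCLC, and its change was 0.26 (SE 0.23, adjusted p = 0.42), or -0.47 with centring (adjusted p = 0.135). Hist1h2ap was at 668 and 366 TPM before and 475 and 431 TPM after, with a change of -0.13 (SE 0.35, adjusted p = 0.81), and its 2 groups overlapped. Over all members the split became 5 higher and 11 lower with centring, which moved the median of all genes by 0.73, and 6 higher and 4 lower with quantile normalization. Of all 27259 genes, 2280 were higher and 5010 lower with centring, and 3307 and 3022 with quantile normalization. Summed TPM with each library scaled to the same median was 3682 in pESC and 1973 in pESC-PGCLC, beside 2389 in ESC and 696.2 in ESC-PGCLC.

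The difference between the 2 lines was tested as an interaction, the change of pESC on differentiation minus that of ESC. It was called in 11 members (15.9%, against 19.1% of all genes), all 11 with a higher value for the parthenogenetic line (15.9%, against 15.5%) and 0 with a lower one (against 3.53%). The share of members was thus near that of all genes. Within it, 8 were H2A and 3 were H2B genes, the H2A median was 1.90 and the median of all genes 0.21. The largest values among H2A were 3.12 for Hist1h2an (SE 0.67, adjusted p = 0.0138), 2.69 for Hist3h2a (SE 0.43, adjusted p = 0.00357) and 2.46 for Hist1h2ai (SE 0.56, adjusted p = 0.0173). The value was 2.22 for Hist1h2ah (SE 0.33, adjusted p = 0.00278). The count fell to 4 without ESC 1 or without pESC-PGCLC 1, to 5 without ESC 2 and to 7 without either ESC-PGCLC library. It became 6 higher and 7 lower with median centring, which moved the median of all genes by 0.74, and 5 higher and 1 lower with quantile normalization. Of all 27259 genes, 1727 were higher and 4062 lower with centring, and 2254 and 1627 with quantile normalization. The higher members then included 5 and 4 H2A genes, with H2A medians of 1.16 and 1.43. The calls of Hist1h2an, Hist3h2a and Hist1h2ah held under both scalings, and that of Hist1h2ai was lost under both.

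**Figure D3:**
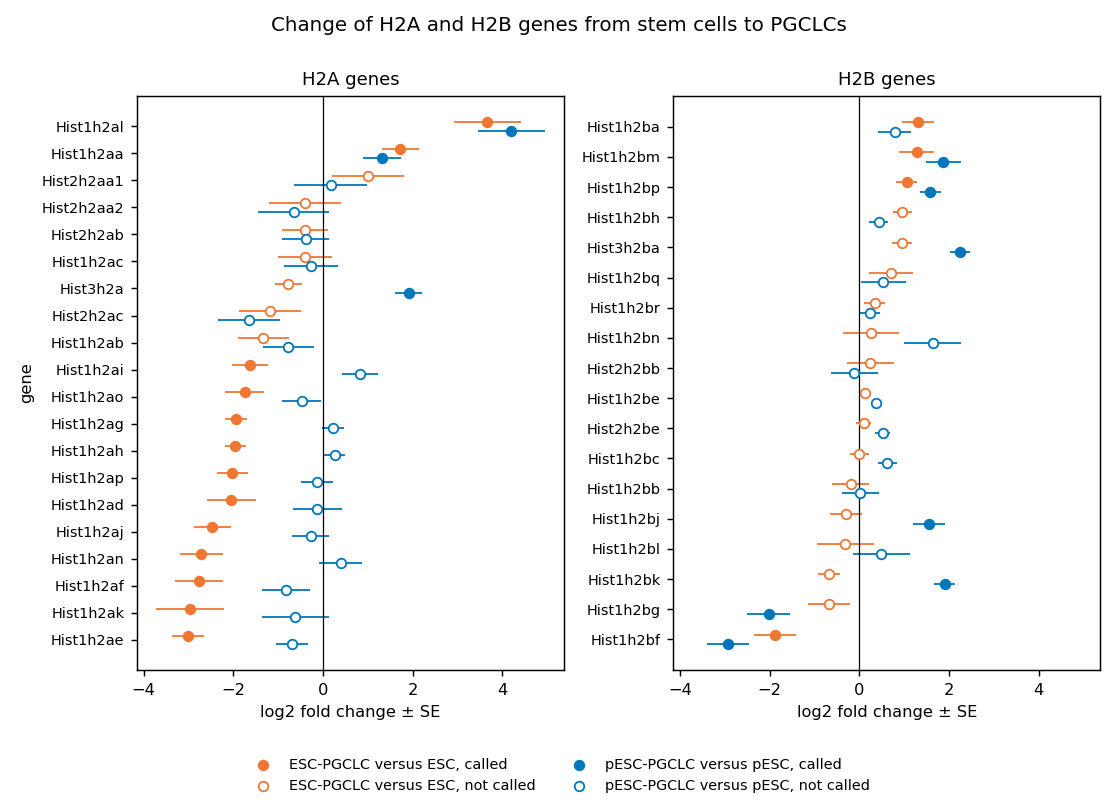
Change of each H2A gene (left) and H2B gene (right) from stem cells to PGCLC on the log2(TPM + 1) scale, as the fitted value with its SE (bars), for ESC-PGCLC against ESC (orange) and pESC-PGCLC against pESC (blue), with called changes filled. Most orange H2A points lie well below 0, with a median of -1.69, and the blue ones have a median of -0.20, which is -0.93 with median centring.

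Set directly against each other, the PGCLC of the 2 lines differed in the H2A genes. In pESC-PGCLC against ESC-PGCLC, 15 members (21.7%) were called, all higher in pESC-PGCLC, against 13.4% of all genes in either direction, 10.3% higher and 3.08% lower. These were 12 of 20 H2A genes and 3 of 18 H2B genes, and 0 of the H1, H3 and H4 genes. Hist1h2ai was at 7.49 and 6.25 TPM in ESC-PGCLC and 57.4 and 35.2 TPM in pESC-PGCLC, a change of 2.55 (SE 0.40, adjusted p = 0.00314). Hist1h2an was at 5.35 and 8.13 TPM against 82.5 and 47.6 TPM, a change of 3.07 (SE 0.48, adjusted p = 0.00305). Hist1h2ah differed by 2.03 (SE 0.23, adjusted p = 0.000835). For these 3 canonical H2A genes the groups did not overlap, which was a condition for naming Hist1h2ai and Hist1h2an. The split was 13 higher and 1 lower with median centring, beside 1460 higher and 1891 lower of all 27259 genes. With quantile normalization it was 15 higher and 1 lower, beside 1735 and 1316. The higher members included 11 and 12 H2A genes.

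PGC, the embryonic reference, were also higher than ESC-PGCLC. In PGC against ESC-PGCLC, 14 members (20.3%) were called, all higher in PGC, against 13.8% of all genes in either direction, 12% higher and 1.88% lower. They were 12 H2A genes and the H2B genes Hist1h2bk and Hist1h2bj. This comparison shares the ESC-PGCLC libraries with those above, so the counts are not independent of each other. Hist1h2an was at 121 and 62.8 TPM in PGC (change 3.54, SE 0.48, adjusted p = 0.00246), and Hist1h2af, at 0.527 and 1.23 TPM in ESC-PGCLC, was at 16.5 and 7.21 TPM in PGC (change 2.70, SE 0.53, adjusted p = 0.00852). In these 2 genes PGC 1 lay well above PGC 2, and the count was 9 without PGC 1 and 22 without PGC 2. Fitted on the compared groups alone the count was 0, and 0 of all 27259 genes were called in that fit. With median centring the count was 11 higher and 6 lower, beside 712 higher and 2003 lower of all genes. With quantile normalization it was 10 higher and 5 lower, beside 938 and 966.

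PGC and pESC-PGCLC differed in 1 member (1.45%), lower in PGC, against 3.67% of all genes, of which 2.07% were higher and 1.6% lower. This was Hist3h2ba, an H2B gene next to Hist3h2a on chromosome 11, at 4.02 and 4.33 TPM in pESC-PGCLC and 1.28 and 1.44 TPM in PGC, a change of -1.13 (SE 0.23, adjusted p = 0.0324). The call was lost in the fits without PGC 1, without either pESC-PGCLC library and without either ESC library. Without PGC 2 the count was 5. The H2A median was -0.02.

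Other measures moved with the H2A difference, and their part in it was not tested. The sum of 9 erythroid marker genes was 0.109 to 4.58 TPM in the stem cells, 492 to 562 in ESC-PGCLC, 2900 to 3440 in pESC-PGCLC and 1990 to 2200 in PGC, so it was lower in ESC-PGCLC than in the other sorted groups as H2A was, but near 0 in the stem cells where H2A was high. The 7 globin genes of the list were called higher in pESC-PGCLC and in PGC than in ESC-PGCLC and also in ESC-PGCLC than in ESC, while Alas2, the erythroid enzyme of heme synthesis, stayed at or under 0.921 TPM in every library and was at 0 in ESC-PGCLC 2. The sum of 8 gonadal somatic genes was 7.12 to 9.46 TPM in stem cells and 43.1 to 48.7 in ESC-PGCLC. It was 82.7 to 89.1 in pESC-PGCLC and 165 to 174 in PGC. Against ESC-PGCLC, 3 of 8 were called higher in pESC-PGCLC and 8 of 8 in PGC, beside 10.3% and 12% of all genes. The sum of 8 fibroblast genes was 0.285 to 0.435 TPM in stem cells, 4.11 to 4.33 in ESC-PGCLC, 7.5 to 9.03 in pESC-PGCLC and 10.5 to 11.7 in PGC. Of the 7 tested, 0 were called between pESC-PGCLC and ESC-PGCLC, and Col3a1, which reached 7.45 TPM, was higher in PGC than in ESC-PGCLC by 1.13 (SE 0.17, adjusted p = 0.00344).

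The calls were also counted among members with little shared sequence. For 16 members, under 10% of 100-base stretches occur elsewhere. Only 4 of these are H2A genes (Hist1h2aa, Hist1h2ac, Hist2h2ab and Hist2h2ac), with a sum of 2.46 to 15.5 TPM. That sum was 3.18 and 5.15 TPM in ESC and 2.46 and 5.06 in ESC-PGCLC, so at these low levels the 2 groups overlapped. Of the 16, 3 were called in ESC-PGCLC against ESC (2 higher and 1 lower) and 3 in pESC-PGCLC against pESC (3 higher). There was 1 in pESC-PGCLC against ESC-PGCLC, 0 in PGC against ESC-PGCLC and 1 in PGC against pESC-PGCLC. PGC against both stem cell lines had 2, the interaction 1 and pESC against ESC 0. In the test for any difference among the 5 groups 8 of the 16 passed. Of all genes, 29.8%, 27.6%, 13.4%, 13.8%, 3.67%, 33.3%, 19.1% and 0.781% were called in these contrasts, in the same order. In the test for any difference 62.5% of all genes passed. Whether the shares among the 16 differ from those of the other members was not tested. Summed TPM of the 16 was 35.2 and 47.5 in ESC, 33.1 and 38.8 in ESC-PGCLC, 65 and 53.1 in pESC-PGCLC. The fall of the H2A class was therefore measured mainly on genes that share sequence with each other.

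Among H2B genes, a set with distinct levels changed in both directions. Hist1h2bm, the H2B gene with the highest mean at 13.4 TPM, was at 3.31 and 5.94 TPM in ESC, 9.55 and 3.52 in pESC, 12.8 and 11.7 in ESC-PGCLC, 27.3 and 21.7 in pESC-PGCLC and 19.4 and 18.8 in PGC. All 6 germ cell libraries were above all 4 stem cell libraries. It rose by 1.28 from ESC to ESC-PGCLC (SE 0.39, adjusted p = 0.0266) and by 1.88 from pESC to pESC-PGCLC (SE 0.39, adjusted p = 0.00493), and 6.59% of its stretches are shared. With quantile normalization the second rise was 1.23 (adjusted p = 0.0546). Its neighbour Hist1h2aj fell over the first of these steps.

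Hist1h2bk was at 2.91 to 5.26 TPM in the stem cells, 3.09 and 2.58 in ESC-PGCLC, 19.2 and 15.9 in pESC-PGCLC and 13.2 and 16.5 in PGC. It was high in the parthenogenetic PGCLC and PGC and not in ESC-PGCLC, and 70.8% of its stretches are shared. The rise from pESC to pESC-PGCLC was 1.90 (SE 0.24, adjusted p = 0.000471) and the interaction 2.57 (SE 0.34, adjusted p = 0.00177). Hist3h2ba was at or under 0.185 TPM in the stem cells, at 0.685 and 1.6 TPM in ESC-PGCLC, and rose from pESC to pESC-PGCLC by 2.25 (SE 0.23, adjusted p = 0.000155). Hist3h2a, its H2A neighbour, was at 1.33 and 1.4 TPM in pESC and 8.86 and 6.98 TPM in pESC-PGCLC (change 1.91, SE 0.30, adjusted p = 0.00134), but it lies on the same strand as part of Trim17, and 29.8% of its stretches are shared.

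The 2 H2B genes that fell were Hist1h2bf and Hist1h2bg. Hist1h2bf was at 4.71 and 6.2 TPM in ESC, 21 and 8.51 in pESC, 0.456 and 1.07 in ESC-PGCLC, 0.509 and 1.38 in pESC-PGCLC and 2.72 and 0.961 in PGC. Every stem cell library lay above every germ cell library, which was in part a condition for naming it. Its change was -2.93 from pESC to pESC-PGCLC (SE 0.47, adjusted p = 0.00146) and -1.89 from ESC to ESC-PGCLC (SE 0.47, adjusted p = 0.0117). Hist1h2bg was at 5.09 to 17.3 TPM in stem cells and 0.896 to 3.96 TPM in the germ cell groups. Its change from pESC to pESC-PGCLC was -2.02 (SE 0.47, adjusted p = 0.00915). Of the stretches of Hist1h2bf 46.4% are shared, and of those of Hist1h2bg 44.9%.

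PGC were also set against both stem cell lines together. There 11 members (15.9%) were called, against 33.3% of all genes, 9 of them higher (13%, against 25.3%) and 2 lower (2.9%, against 8.06%). The higher ones were the H2B genes Hist1h2bm, Hist1h2bk, Hist1h2bj, Hist1h2bp and Hist3h2ba, the H2A genes Hist3h2a and Hist1h2al, Hist1h3b and Hist1h4n. Hist1h2bm changed by 1.71 (SE 0.33, adjusted p = 0.00275), Hist1h2bf by -1.83 (SE 0.41, adjusted p = 0.00535) and Hist1h2bg by -1.85 (SE 0.41, adjusted p = 0.0053). Centring, which moved the median of all genes by 0.76, gave 1 higher and 14 lower, and quantile normalization 1 higher and 5 lower, so the direction of the count followed the scaling. Of all 27259 genes, 3090 were higher and 5533 lower with centring, and 3809 and 3544 with quantile normalization. Hist1h2al, Hist1h2bf and Hist1h2bg kept their calls under both. Hist1h2bm (0.95 and 0.96), Hist1h2bk (0.76 and 0.73), Hist3h2a (0.69 and 0.67), Hist1h4n (0.63 and 0.55) and Hist3h2ba (0.36 and 0.74) stayed positive and lost theirs under centring and quantile normalization.

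In the head-to-head pairs the H2A gene had the higher TPM in all 10 libraries in 10 of 13 pairs. Between members of a pair the ratio of mean TPM ran up to 1230 for Hist1h2ap over Hist1h2br. It was 41.8 for Hist1h2ag over Hist1h2bj and 7.98 for Hist1h2aj over Hist1h2bm. Annotated lengths differ within pairs, at 482 bases for Hist1h2ap and 2212 for Hist1h2br, and enter these ratios. The pair Hist1h2ac and Hist1h2bc was the reverse, with a ratio of 0.149 and H2A higher in 0 libraries. Hist1h2bc is known to make a polyadenylated transcript too, as is Hist2h2be, whose pair with Hist2h2ac had a ratio of 8.8. The part of polyadenylation in these ratios was not tested. The pair of germline genes Hist1h2aa and Hist1h2ba had a ratio of 1.34, with H2A higher in 5 libraries.

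**Figure D4:**
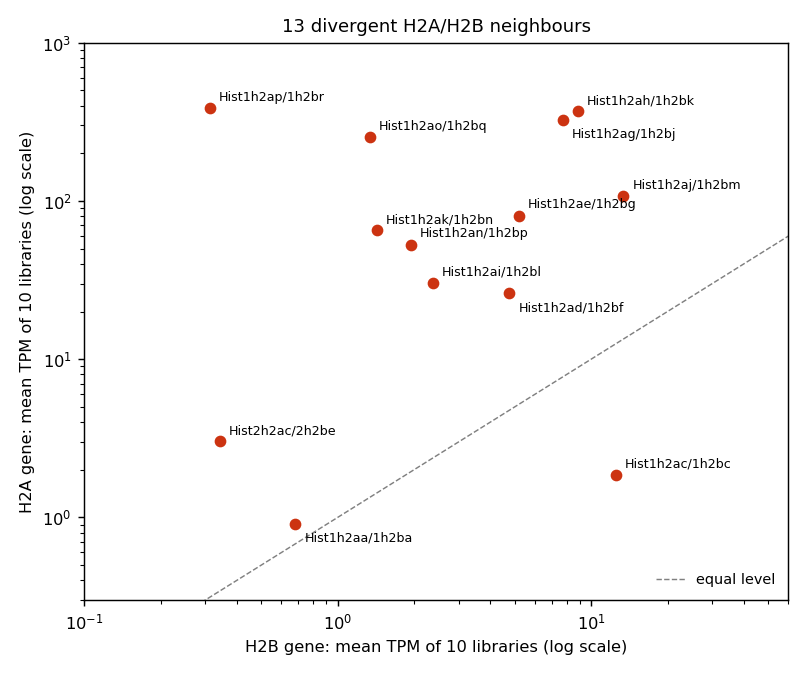
Mean TPM over the 10 libraries of the H2A gene (y axis) against that of the H2B gene (x axis) of each of the 13 head-to-head pairs (points), both on log axes, with a dashed line where the levels are equal. In 12 pairs the point lies above the line, from 1.34-fold for Hist1h2aa and Hist1h2ba to 1230-fold for Hist1h2ap and Hist1h2br, and the pair Hist1h2ac and Hist1h2bc lies under it.

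H3 and H4 genes were low. In ESC-PGCLC against ESC, 4 of 13 H4 genes and 2 of 12 H3 genes were called, beside 29.8% of all genes. The 2 most abundant H4 genes both fell in the fertilized line. Hist1h4d was at 13.6 and 19.1 TPM in ESC and 4.99 and 5.61 TPM in ESC-PGCLC, a change of -1.45 (SE 0.25, adjusted p = 0.00186), and none of its stretches are shared. Hist1h4i was at 15.2 and 16.9 TPM in ESC and 6.36 and 7.77 TPM in ESC-PGCLC, a change of -1.08 (SE 0.28, adjusted p = 0.0141). In pESC-PGCLC against pESC the change of Hist1h4d was -0.91 (adjusted p = 0.0183), under the 2-fold minimum.

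Hist1h4n was higher in all germ cell groups, and from pESC to pESC-PGCLC its call too was lost under both scalings. It was at 2.78 to 3.44 TPM in the 4 stem cell libraries. In ESC-PGCLC it was at 8.31 and 12.6, in pESC-PGCLC at 9.83 and 10.9 and in PGC at 6.56 and 14.2. The lack of overlap was in part a condition for naming it. Its change was 1.54 from ESC to ESC-PGCLC (SE 0.32, adjusted p = 0.00481) and 1.39 in PGC against both stem cell lines (SE 0.28, adjusted p = 0.00305), and 80.7% of its stretches are shared. The PGC call was lost with centring (0.63, adjusted p = 0.0764) and with quantile normalization (0.55, adjusted p = 0.19). Of the H3 genes, Hist2h3c1 rose from 0.0595 and 0.0922 TPM in ESC to 2.3 and 1.48 TPM in ESC-PGCLC (change 1.41, SE 0.18, adjusted p = 0.000405), but every stretch of it is shared, and it overlaps Gm20634 on the same strand. The most abundant H3 genes, Hist1h3c and Hist1h3h, were at 1.55 and 3.07 TPM and 2.11 and 1.64 TPM in ESC, and neither was called in any comparison.

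Among H1 genes and the polyadenylated members nothing passed the test of a contrast. No H1 gene was called in any comparison, although with median centring 1 was lower in pESC-PGCLC than in pESC and 1 had a negative interaction. In the test for any difference among the 5 groups (adjusted p under 0.05, no fold minimum), which called 34 members (49.3%, against 62.5% of all genes), the H1 count was 0. The others were 14 H2A, 11 H2B, 3 H3 and 6 H4 genes. Hist1h1b, the linker H1.5 and the most abundant of its class, was at 9.5 and 11.2 TPM in ESC, 8.88 and 15.2 in pESC, 5.94 and 7.94 in ESC-PGCLC, 12.8 and 11.6 in pESC-PGCLC and 14.3 and 12.7 in PGC, and the 2 ESC-PGCLC libraries were the lowest. Its change from ESC to ESC-PGCLC was -0.52 (SE 0.25, adjusted p = 0.126). Of the members also known to be polyadenylated, Hist1h1c lay between 1.02 and 3.18 TPM, Hist1h2bc between 7.97 and 16.9 and Hist2h2be between 0.0434 and 0.972, and 0 of these 3 were called in any of the 8 contrasts. Hist1h2bc changed by 0.00 from ESC to ESC-PGCLC (SE 0.21, adjusted p = 1).

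The germline members had no reads in the stem cells and few elsewhere. Hist1h2aa (TH2A; chr13:23934462-23934851) had 0 reads in all 4 stem cell libraries, 3 and 5 in ESC-PGCLC, 8 and 3 in pESC-PGCLC, and 0 and 4 in PGC. In TPM this was 1.62 and 3.15, 2.41 and 0.818, and 0 and 1.14. The limit of 3 reads over the group is 0.365 TPM in ESC and 0.441 in pESC. Its level was 6.37-fold the ESC limit in ESC-PGCLC and 3.57-fold the pESC limit in pESC-PGCLC. These ratios leave out the counting error of its own 8 and 11 reads, so they are not lower bounds of the fold. Both rises were called, with adjusted p = 0.0101 and 0.0332. Hist1h2ba (TH2B; chr13:23933773-23934156) had 0 reads in stem cells, 2 and 3 in ESC-PGCLC, 3 and 2 in pESC-PGCLC and 5 and 1 in PGC. Its level was 3.98-fold the ESC limit in ESC-PGCLC and 1.62-fold the pESC limit in pESC-PGCLC. Each rests on 5 reads, whose counting error is again left out. The limma test of these 2 rises gave adjusted p = 0.019 and 0.118. The fitted changes of such genes depend on the pseudocount. Of the stretches of Hist1h2ba 27.4% are shared, most with Hist1h2bj.

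Hist1h1t (H1t; chr13:23695814-23696725) had 0 reads in the 6 stem cell and ESC-PGCLC libraries, 1 and 2 in pESC-PGCLC and 5 and 0 in PGC. No difference between PGCLC and their stem cells could be detected with these read numbers, since 0 reads over the group allow up to 0.156 TPM in ESC and 0.373 TPM in ESC-PGCLC. A TH2A-specific signal is also limited by Gm44344, the opposite-strand model inside Hist1h2aa, which had 0 to 5 reads per library.

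Hist1h2al, 1 of the 2 pseudogene models (chr13:51202727-51203065, minus strand), separated germ cells from stem cells by far more reads. It had 0, 0, 0 and 1 reads in the stem cells, 19 and 16 in ESC-PGCLC, 57 and 66 in pESC-PGCLC and 269 and 49 in PGC, or 11.8 and 11.6, 19.7 and 20.7, and 124 and 16 TPM. Its level in ESC-PGCLC was 27.9-fold the limit of 3 reads in ESC. Against pESC, with 1 read, the ratio was 120 in pESC-PGCLC with a 95% counting interval of 21.1 to 4770. It was called in all 3 comparisons of germ cells with stem cells (adjusted p = 0.00456, 0.00249 and 0.000192). Its opposite-strand model Gm44341 moved alike, from 0 to 0.836 TPM in stem cells to 22.9 and 26.7 in ESC-PGCLC and 287 and 23.3 in PGC.

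**Figure D5:**
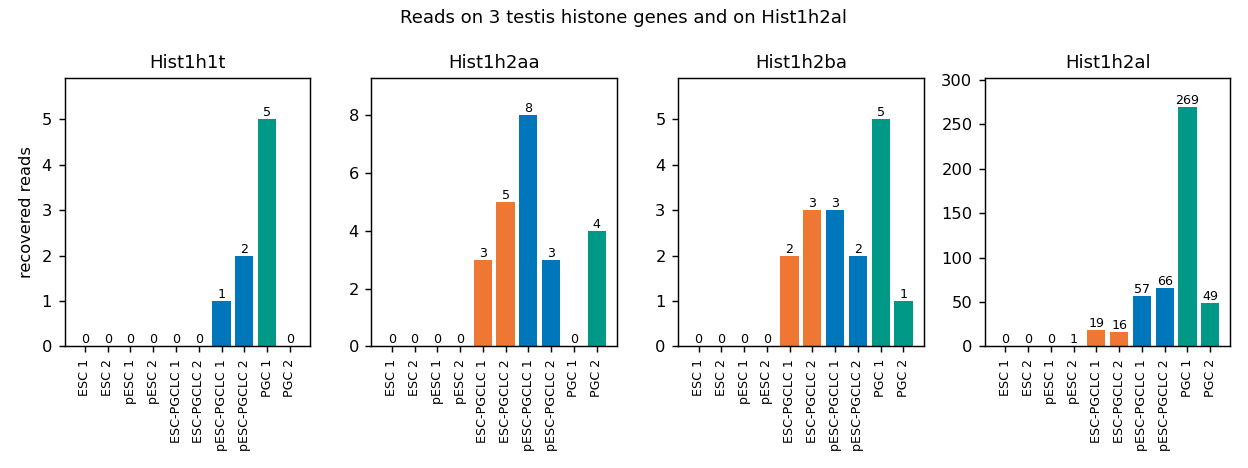
Recovered reads (bars, with the number above each) in each of the 10 libraries for Hist1h1t, Hist1h2aa, Hist1h2ba and the pseudogene model Hist1h2al, on axes of different height that start at 0. The 3 testis-type genes reach at most 8 reads, and Hist1h2al has at most 1 read in a stem cell library and 16 to 269 in the germ cell libraries.

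Between the 2 stem cell lines themselves no member passed the test. In pESC against ESC, 0 of 69 members were called by limma, against 0.781% of all genes (0.165% higher and 0.616% lower), and 4838 of 27259 genes had an unadjusted p under 0.05. The median change was 0.16 for members and -0.06 for all genes. With pESC 2 left out 1 member was called. pESC 1 was at least 2-fold over pESC 2 in 19 members (27.5%, against 2.3% of all genes), and PGC 1 over PGC 2 in 22 (31.9%, against 3.75%), while in ESC this was 0. Hist1h3c, at 19.7 TPM in pESC 1 and 1.83 in pESC 2, is an example of this spread.

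Genes that make or read histone mRNA were listed beside the members. Of 12 genes of histone transcription and 3′ end processing, 4 rose and 3 fell in ESC-PGCLC against ESC. In pESC-PGCLC against pESC, 7 rose and 1 fell. Of all genes, 15.3% rose and 14.5% fell in the first comparison, and 20.8% rose and 6.8% fell in the second. Npat, the coactivator of histone genes, rose by 2.13 (SE 0.19, adjusted p = 6.75e-05) in the first and 2.05 in the second, and Coil, the coilin of Cajal bodies, changed by -3.90 (SE 0.18, adjusted p = 4.05e-06) and -3.78. Lsm10, a subunit of the U7 snRNP, was higher in pESC-PGCLC than in ESC-PGCLC by 2.42 (SE 0.22, adjusted p = 0.000335) and was the 1 gene called in that comparison and in PGC against ESC-PGCLC (1.38, SE 0.22, adjusted p = 0.00417). Slbp, the stem-loop binding protein, had an interaction of 1.29 (SE 0.21, adjusted p = 0.00447).

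S phase genes were counted in the same comparisons. Of 22 such genes, 2 rose and 5 fell in ESC-PGCLC against ESC, 8 rose and 0 fell in pESC-PGCLC against pESC, 5 were higher in pESC-PGCLC than in ESC-PGCLC and 7 in PGC than in ESC-PGCLC, and 11 had a called interaction, all higher for the parthenogenetic line. Of all genes, 15.3% rose and 14.5% fell in the first comparison, 20.8% and 6.8% in the second, 10.3% and 12% were higher in the next 2, and 15.5% had a higher interaction, which centring moved by 0.74. Tk1, thymidine kinase, changed by -2.96 (SE 0.17, adjusted p = 9.08e-06) and Ccne1, cyclin E1, by -1.52 (SE 0.23, adjusted p = 0.00106) in ESC-PGCLC against ESC. Of 10 histone chaperones, 2 rose (Hira and Npm3) and 1 fell in ESC-PGCLC against ESC. The 1 that fell was Chaf1b of the CAF-1 complex, which changed by -3.14 (SE 0.27, adjusted p = 5.11e-05). In pESC-PGCLC against ESC-PGCLC, 2 chaperones were higher and 0 lower, with Asf1b higher by 2.25 (SE 0.19, adjusted p = 0.000263). Of 12 tested replacement histones and variants, 0 rose and 4 fell in ESC-PGCLC against ESC, with H2afz, the gene for H2A.Z, at -2.01 (SE 0.24, adjusted p = 0.000255) and H1f0 at -1.87 (SE 0.15, adjusted p = 3.79e-05). All these genes share the libraries of the members and are no independent check.

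Other RNAs without a poly(A) tail moved in both directions. Of 11 tested, 3 rose and 1 fell in ESC-PGCLC against ESC, and 1 was higher and 2 lower in pESC-PGCLC than in ESC-PGCLC. Of all genes, 15.3% rose and 14.5% fell in the first comparison, and 10.3% were higher and 3.08% lower in the second. Rn7sk, the 7SK RNA, was at 6.56 and 8.9 TPM in ESC, 44.5 and 79.4 in ESC-PGCLC, 10.6 and 13.2 in pESC-PGCLC and 16.6 and 28.1 in PGC. Rnu7, the U7 RNA, was at 12.3 and 13.6 TPM in ESC, 0 and 0 in ESC-PGCLC, 17 and 3.43 in pESC-PGCLC and 12.6 and 0 in PGC, and it was called lower in ESC-PGCLC than in ESC (adjusted p = 0.0269). Rn7sk was thus highest in ESC-PGCLC, where H2A was lowest. Rnu7 was at 0 TPM there and also in PGC 2, where the H2A sum was 1206 TPM. The ESC-PGCLC libraries were the shallowest, and the part of depth in the Rnu7 values was not tested. Rpph1, the RNA of RNase P, was higher in pESC-PGCLC than in ESC-PGCLC by 1.62 (SE 0.35, adjusted p = 0.0135). The part of RNA capture in the histone values was not tested.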

How the data were processed

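RNA-seq libraries from 10 samples were analysed, 2 in each of 5 groups, grouped by the sample titles. The authors mapped reads to mm10 and deposited TPM values per gene in 1 table; the processing notes name Bowtie2, HISAT2, RSEM and R 3.4.2, and the study's methods name HISAT2 and featureCounts. The roles of these tools in making the TPM are not given in the sources used here. No read counts were used as deposited: whole reads were recovered from the TPM steps with GENCODE transcript lengths for 35861 of 36066 genes, which gave depth, limits and 1 added alternative.

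TPM was analysed as log2(TPM + 1) with limma 3.58.1 in R 4.3.3 (1 mean per group, trended empirical Bayes, Benjamini-Hochberg adjustment over the 27259 genes that reached 0.1 TPM in 2 or more libraries). Sums, sequence matches and figures were made in Python 3.11.15 with pandas 2.3.3, scipy 1.17.1 and matplotlib 3.10.9. The fit was tested on simulated data. No test was made over the list of members. Members and lists were chosen with earlier results of these data known. Genes named are the germline members, the 2 with the highest mean TPM per class, up to 5 called members per direction and comparison that did not overlap and reached 1 TPM, the polyadenylated members, and up to 3 called genes per other list; other members, such as Hist1h2ag, Hist1h2ao, Hist1h2bj, Hist1h2bp and Hist1h3b, and the models overlapping members were named after their values were seen. The other settings tried were a filter of 1 TPM and none, a pseudocount of 0.1, median centring, quantile normalization, a replicate block, the compared groups alone, each library left out, and voom on recovered reads, which was added after seeing the data.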

Additional observations from a re-analysis of the deposited data

Results flagged for a closer look

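In 11 members the change on differentiation differed between the 2 lines by a test of the difference itself (limma interaction, log2 scale, pESC minus ESC, n = 2 libraries a group). The values were 3.12 for Hist1h2an (adjusted p = 0.0138), 2.69 for Hist3h2a (0.00357), 2.57 for Hist1h2bk (0.00177), 2.46 for Hist1h2ai (0.0173), 2.32 for Hist1h2ae (0.0138) and 2.22 for Hist1h2ah (0.00278). They were 2.21 for Hist1h2aj (0.0304), 2.17 for Hist1h2ag (0.0039), 1.89 for Hist1h2ap (0.0297), 1.86 for Hist1h2bj (0.033) and 1.30 for Hist3h2ba (0.0246). All 11 were higher in the parthenogenetic line, and 8 of them are H2A genes. They were 15.9% of members, beside 19.1% of all genes in either direction and 15.5% higher, so the share of members was near that of all genes. With median centring the count became 6 higher and 7 lower, beside 1727 higher and 4062 lower of all 27259 genes. Under both median centring and quantile normalization the calls of Hist1h2ai (adjusted p = 0.0536 and 0.0601), Hist1h2aj (0.0877 and 0.103), Hist1h2ap (0.116 and 0.0509) and Hist3h2ba (0.214 and 0.0903) were lost, and the value of Hist3h2ba became 0.56 and 1.00. Hist1h2ae was called with centring and not with quantile normalization (0.0759). Of H2B genes, 3 were called higher in the main fit and 1 under each of these scalings. Hist1h2bk and Hist1h2bj therefore did not both keep their calls under either one.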

How the results depend on the processing

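Of 630 values for the 35 changes of named members under the alternatives, 580 kept their direction and call, 50 kept the direction and lost the call, and 0 reversed; 17 of the 35 changes were called under every alternative. On the compared groups alone, 0 of all 27259 genes were called in pESC against ESC and in PGC against either PGCLC group. For the counts of members called, the cause of each of the following moves was not tested. The count of 0 in pESC against ESC ranged from 0 to 1 with a library left out (1 without pESC 2), and that of 23 in ESC-PGCLC against ESC from 13 (without ESC 1) to 24. The count of 14 in PGC against ESC-PGCLC was 0 on the compared groups alone, with fewer libraries to estimate the spread, and ranged from 9 (without PGC 1) to 22 (without PGC 2). The count of 1 in PGC against pESC-PGCLC was 0 with a pseudocount of 0.1, 2 with median centring, 0 on the compared groups alone, 0 with voom, and 0 to 5 with a library left out. The count of 11 in PGC against both stem cell lines was 18 with a pseudocount of 0.1, 6 with quantile normalization and 21 with voom. The interaction count of 11 was 6 with quantile normalization and 4 to 12 with a library left out. With each library scaled to the same median, the summed TPM became 2389 in ESC, 3682 in pESC, 696.2 in ESC-PGCLC and 1973 in pESC-PGCLC, and without the highest member it was 1667 in ESC, 500.4 in ESC-PGCLC and 1883 in pESC-PGCLC.

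Replicate numbers are shared across groups, but deviations of same-numbered libraries correlated between -0.0936 and 0.347 over 9024 genes, over 0.1 for the 3 pairs of groups among ESC, pESC and PGC and not for the other 7, so the numbers were not taken to pair the samples. With the replicate block the counts were 0, 16, 24, 12, 16, 1, 12, 12 and 32, against 0, 15, 23, 11, 14, 1, 11, 11 and 34 without it, in the order pESC against ESC, pESC-PGCLC against ESC-PGCLC, each PGCLC group against its own line (ESC first), PGC against each PGCLC group (ESC-PGCLC first), PGC against the stem cells, interaction and any difference.

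Depth limits the low members: 3 reads on 500 bases are 0.505 to 1.47 TPM. Shared sequence, in H2A genes and in members of other classes, limits what is known of each one.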

Other observations

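Across the 10 libraries, the genes whose log2 TPM followed the mean log2 level of the 69 members most closely, among 8512 other genes with at least 5 TPM on average, were Gm15427 (Pearson r = 0.97), Rps10 (0.968), Gm6472 (0.95), Rps15 (0.945) and Dctpp1 (0.929). These are descriptions over libraries that share their groups. Rps15, a ribosomal protein gene, was at 1000 and 952 TPM in ESC, 688 and 713 in ESC-PGCLC, 1550 and 1300 in pESC-PGCLC and 1970 and 1360 in PGC.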
